A study of Homo sapiens with 10 samples.

Results

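The regions described here are MYC peaks in RPMI-8402 cells that lie in chromatin with the marks of an active enhancer. They were selected on 4 peak lists: a peak of the MYC library of set D was kept when it shared at least 1 bp with an H3K27ac region and with an H3K4me1 region of set C and with no H3K4me3 region of set B. Of 18018 MYC peaks on chromosomes 1 to 22 and X, 2986 met the rule, which is 16.6% (exact 95% interval 16.0 to 17.1%, covering counting error over the listed peaks only). RPMI-8402 is an established cell line from a human T-cell leukaemia, the acute lymphoblastic form (T-ALL), and no drug or genetic change is named in the labels. In CUT&RUN, the assay used, an antibody on permeabilised cells draws in a nuclease that cuts out the DNA beside the antibody's target. The series has 10 libraries in 4 sets, 4 of them control IgG libraries, whose lists were not used here. The 2 lists that the rule did not use are MYCN of set A and MYC of set C, labelled as a sample of its own with the same MYC antibody as set D. The headers of both MYC lists name 1 signal track, so set C and set D may be separate libraries or 2 callings of 1 library, and every set C share below is to be read with that limit. Each list stands for 1 library of 1 cell line, so nothing below has a replicate, and p-values describe the listed peaks rather than the spread between cultures. The lists hold positions on hg19 with no score or read count, so depth is unknown.

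MYC binds DNA as a dimer with MAX, preferring E-box sequences, and in most cells is concentrated at active promoters. MYCN is its close relative, and the pair can occupy the same sites. Nucleosomes beside active promoters carry H3K4me3 and H3K27ac, whereas active enhancers, which act on genes at a distance, carry H3K27ac with H3K4me1 and little H3K4me3. When its level is high, MYC is known to be found at enhancers as well as at promoters. No genome or gene annotation of hg19 was used here, so the peaks are given by position, and neither their genes nor their sequences are described.

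Enhancer-like MYC peaks were narrower than MYC peaks with both H3K4me3 and H3K27ac. Peaks with H3K27ac alone were about as narrow and lay farther from H3K4me3. Their median width was 340.5 bp (quartiles 253 and 458), against 588 bp (418 and 782) for the 7479 MYC peaks with both H3K4me3 and H3K27ac, called promoter-like below, and 335 bp (246 and 472) for the 2267 MYC peaks with H3K27ac alone. MYC peaks with no mark were narrower still, at a median of 279 bp. Width follows from the same list that chose the peaks, and a wide peak meets a mark more easily, so these values are a description. The nearest H3K4me3 region was a median of 53.9 kb away (quartiles 21.1 and 139 kb), compared with 72.6 kb for the peaks with H3K27ac alone. Of the 2986, 54 (1.81%) lay within 2 kb of H3K4me3, a share that was not counted in other classes. The rule leaves out peaks that overlap H3K4me3, so these distances are a description too. The next peak of the same kind was a median of 113 kb away, and 246 (8.24%) had one within 10 kb. No background was computed for this spacing, so it is a description only.

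The marks did not cover the MYC peaks equally. H3K27ac covered the centre base of 2770 of the 2986 peaks (92.8%) and the whole of 1883 (63.1%). H3K4me1 covered the centre base of 2244 (75.2%) and the whole of 1077 (36.1%). At 675 peaks (22.6%) H3K4me1 met 1 side of the peak without reaching its centre, and at 67 (2.24%) it lay on both sides with the centre free. At 500 bp to the left of the centre, H3K27ac covered 36.3% of the peaks and H3K4me1 23.4%, and at 1 kb the 2 shares were 8.71% and 8.00%. The widest H3K27ac region at each peak had a median width of 831.5 bp and the widest H3K4me1 region 483 bp. These region widths exceeded the medians of the whole lists, 551 and 324 bp, in a comparison that the overlap rule favours.

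**Figure D1:**
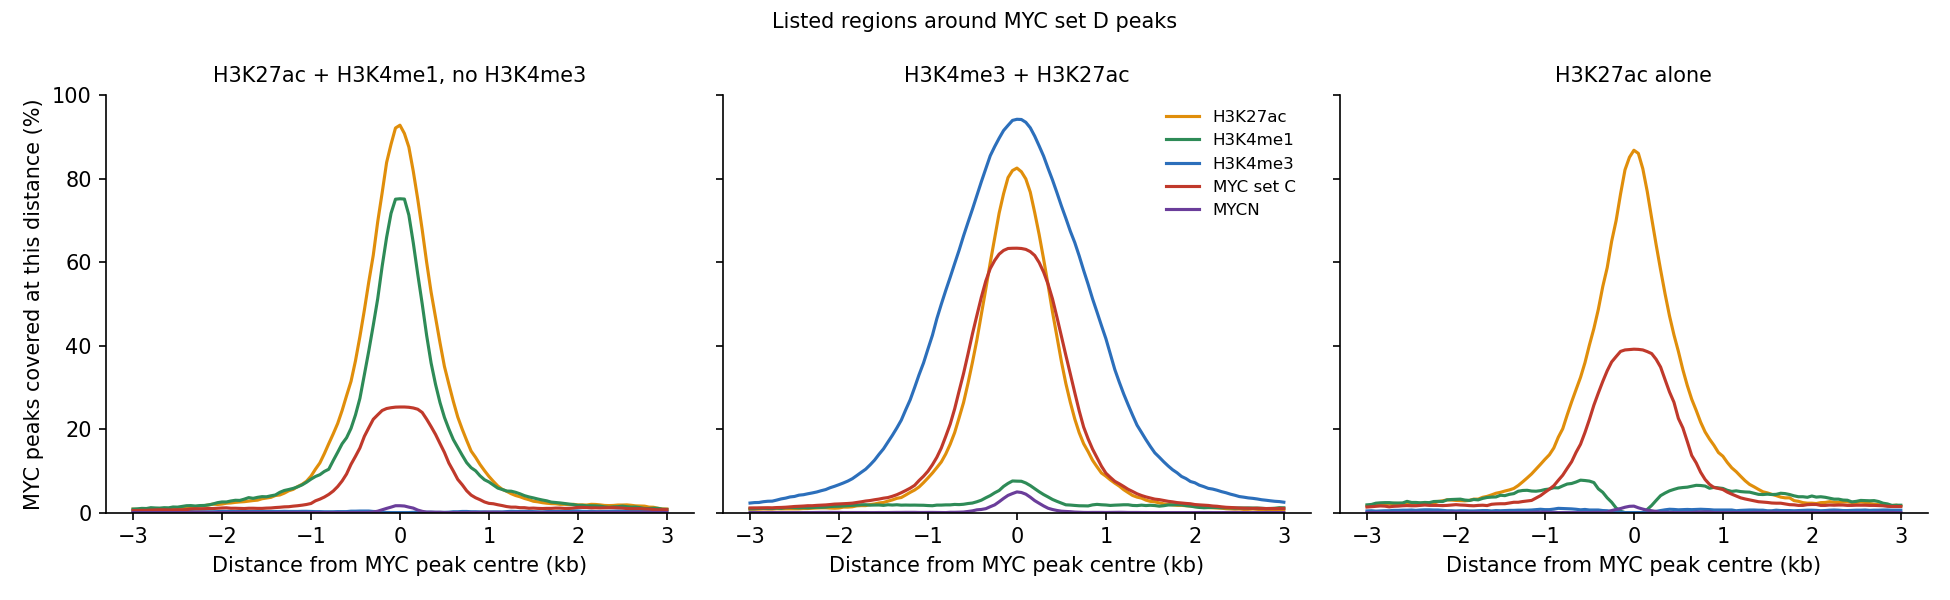
Share of MYC set D peaks (y axis, %) covered by a region of each list at each distance from the MYC peak centre (x axis, kb), for enhancer-like peaks (left), promoter-like peaks (middle) and peaks with H3K27ac alone (right). At the centre of enhancer-like peaks H3K27ac reached 92.8% and H3K4me1 75.2%, while MYC of set C reached 25.3% there against 63.3% at promoter-like peaks.

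A few peaks sat at the threshold of the rule. H3K4me1 was met over fewer than 50 bp by 116 of the 2986 peaks (3.88%) and H3K27ac by 29 (0.971%). Just outside, 76 MYC peaks with H3K27ac missed an H3K4me1 region by under 50 bp, and 27 with H3K4me1 missed H3K27ac by as little. On the side of H3K4me3, 8 of the peaks kept lay under 50 bp from such a region, and 8 MYC peaks with all 3 marks shared under 50 bp with one and were left out.

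Seen from the enhancers, 3017 of 18564 H3K4me1 regions with H3K27ac and without H3K4me3 held a MYC peak of this kind, which is 16.3% (15.7 to 16.8%). The share was 11.8% among the narrowest 1851 of those regions and 28.0% among the widest 1857. A wide region meets a peak more easily, and this was not taken into account. By chromosome, the fraction of MYC peaks that were enhancer-like ran from 8.13% on chromosome X and 8.28% on chromosome 19 to 24.3% on chromosome 20 and 25.7% on chromosome 21. Counted over the enhancer-like H3K4me1 regions instead, the range narrowed to between 12.0% on chromosome 18 and 20.4% on chromosome 21. Chromosome 19, near the bottom of the first order with 85 of 1026 MYC peaks, was next to the top of the second with 87 of 442 regions (19.7%, 16.1 to 23.7%). Its low fraction of enhancer-like peaks was thus not matched by a low occupancy of its enhancer-like regions.

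**Figure D2:**
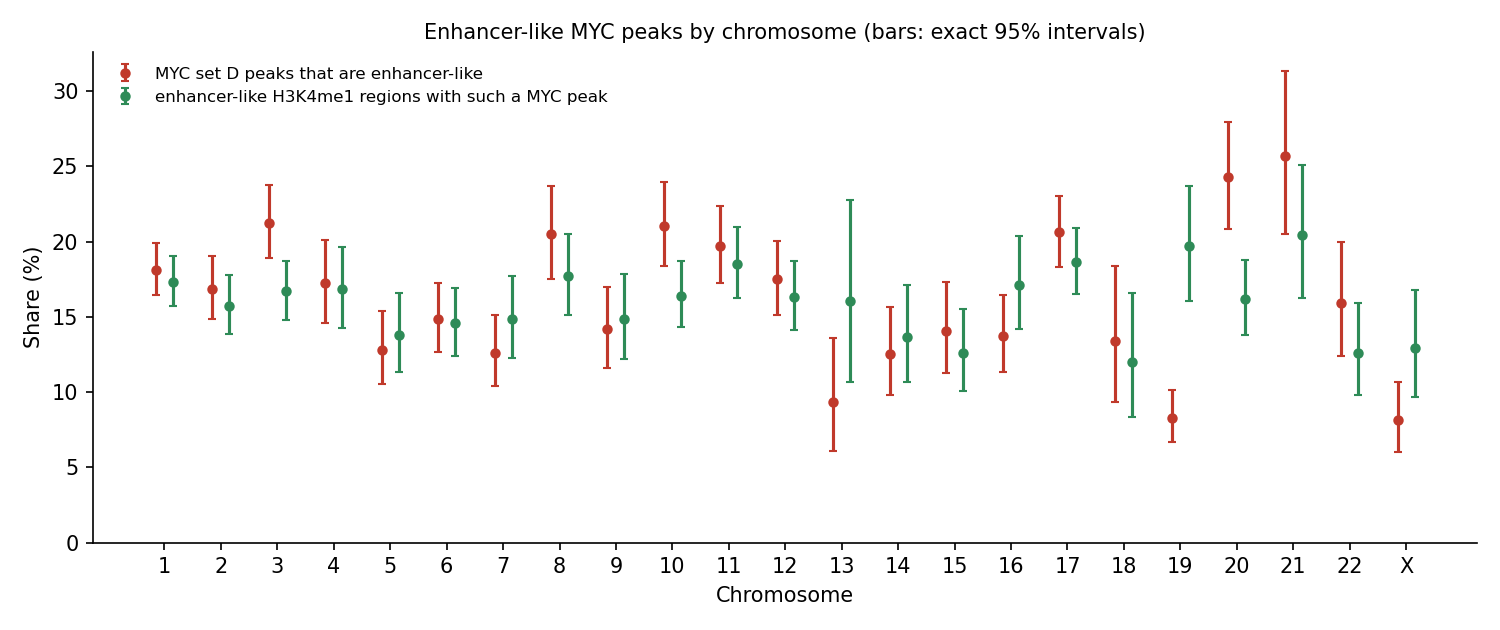
Enhancer-like MYC peaks as a share of all MYC set D peaks (red) and share of enhancer-like H3K4me1 regions that hold one (green) on each chromosome (x axis), with exact 95% intervals as bars (y axis, %). The red values range from 8.13% to 25.7% and the green from 12.0% to 20.4%, and on chromosome 19 the 2 differ most in rank.

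The first measure that the rule did not use was the MYC list of set C, which holds 9498 regions. It overlapped 761 of the 2986 enhancer-like peaks, or 25.5% (23.9 to 27.1%), where 45.1% of all MYC set D peaks overlapped it. Promoter-like peaks were in the set C list far more often, at 64.1% (63.0 to 65.2%, 4794 of 7479), and peaks with H3K27ac alone at 39.3% (37.2 to 41.3%, 890 of 2267). The enhancer-like share was lower by 38.6 percentage points than the promoter-like one (adjusted p = 1.88e-286 by the two-sided form of Fisher's exact test, used throughout and adjusted over 7 tests by Benjamini-Hochberg) and was lower by 13.8 points than that of peaks with H3K27ac alone (adjusted p = 4.22e-26, Fisher's exact test). All 15032 other MYC set D peaks overlapped it at 48.9%, and relative to them the enhancer-like share was lower by 23.5 points (adjusted p = 1.45e-127, Fisher's exact test). The low share was not particular to enhancer-like peaks: it was 21.9% (415 of 1899) at MYC peaks with no mark and 13.4% (105 of 783) at those with H3K4me1 alone, both below 25.5%, and these differences were not tested. The callers differ, SEACR for set C and MACS2 for set D, so in this overlap the caller and the library cannot be told apart.

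The lower share in set C held in every width group. At equal width it was smaller in size against promoter-like and all other MYC peaks, but not against H3K27ac alone. When the 18018 peaks were divided into 10 groups by width, the enhancer-like share was below the promoter-like share and below that of peaks with H3K27ac alone in all 10. In the narrowest group, 186 to 220 bp, it was 15.6% of 398 peaks against 36.8% of 228 promoter-like peaks. In the group from 422 to 489 bp it was 34.4% of 302 against 55.8% of 736. Within the width groups the odds ratio against all other MYC set D peaks was 0.498 (0.452 to 0.548), where it was 0.357 without the groups (exact conditional test, two-sided, adjusted p = 1.72e-49). The common odds ratio was 0.337 (95% interval 0.304 to 0.374) against promoter-like peaks, where it was 0.192 without the groups (exact conditional test, two-sided, adjusted p = 3.34e-96) and 0.510 (0.449 to 0.578) against H3K27ac alone, where it was 0.529 (exact conditional test, two-sided, adjusted p = 4.79e-26). The last pair of classes, which differ by H3K4me1 and had nearly the same median width, were thus found in the set C list at unequal rates.

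**Figure D3:**
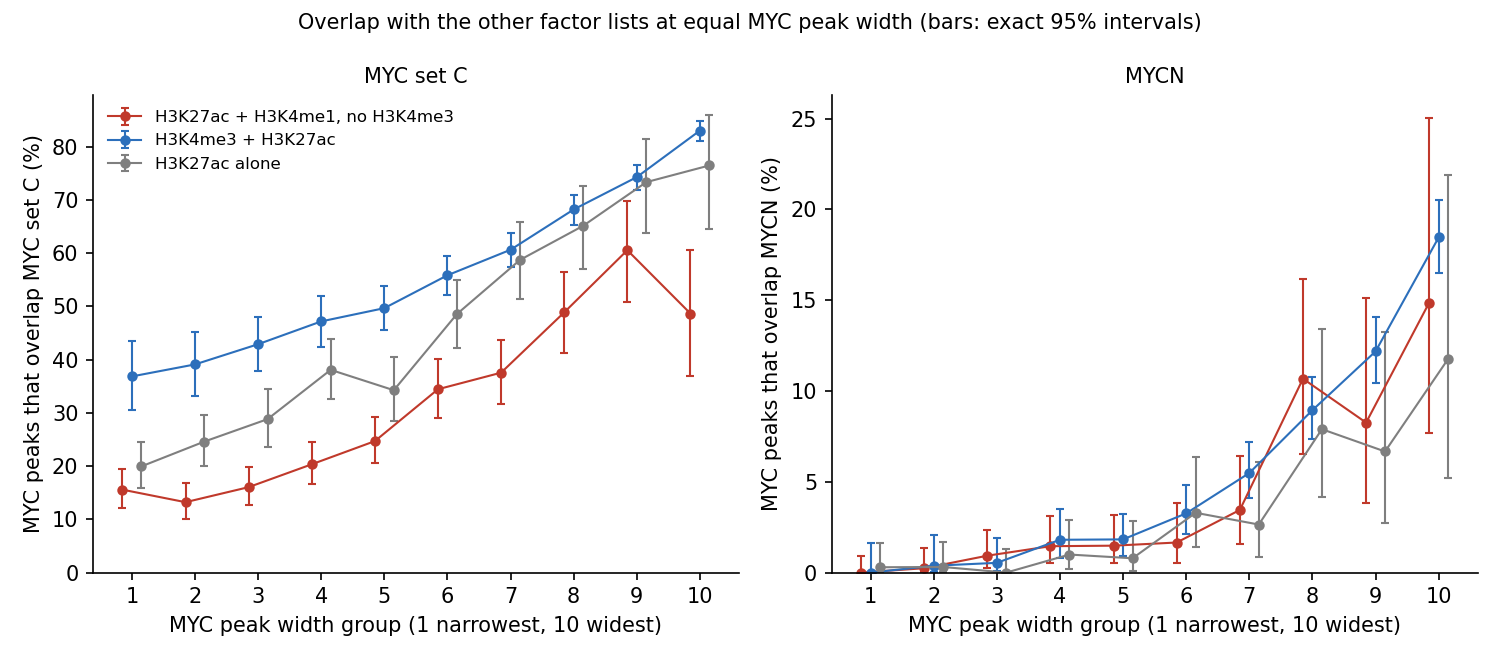
Share of MYC set D peaks (y axis, %) that overlap MYC of set C (left) and MYCN (right) in 10 groups of MYC peak width (x axis), with exact 95% intervals as bars, for the 3 classes of marks. In the left panel the enhancer-like peaks (red) are lowest in every width group, and in the right panel the intervals of the classes overlap in most groups.

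Among the enhancer-like peaks themselves, presence in set C varied with where the peak lay. Of the 34 peaks under 1 kb from an H3K4me3 region, 18 (52.9%, 35.1 to 70.2%) overlapped set C. The share was 39.8% of 93 peaks at 1 to 5 kb, 28.4% of 587 at 5 to 20 kb and 26.6% of 710 at 20 to 50 kb. Beyond that it was level, with 22.6% of 574 at 50 to 100 kb, 22.2% of 459 at 100 to 200 kb and 22.3% of 529 farther out. Median peak width stayed between 325 and 347 bp in all bands but the nearest, where it was 385 bp. No other class was divided by distance, and the reach of wide set C regions near H3K4me3 was not taken into account. The position of H3K4me1 on the peak also went with the share: it was 21.8% (20.1 to 23.6%) where H3K4me1 covered the centre, 36.1% (32.5 to 39.9%) where it touched 1 side and 41.8% (29.8 to 54.5%) where it flanked the centre on both sides. Peak width moved with this position, with medians of 321.5, 398 and 557 bp, and its part in the rise was not tested. Where set C did cover an enhancer-like peak, its region was wider, with a median of 1062 bp, and its stretch of highest signal lay inside the set D peak at 659 of 760 peaks (86.7%), a median of 89 bp from the centre. The place of this stretch was not measured in any other class.

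**Figure D4:**
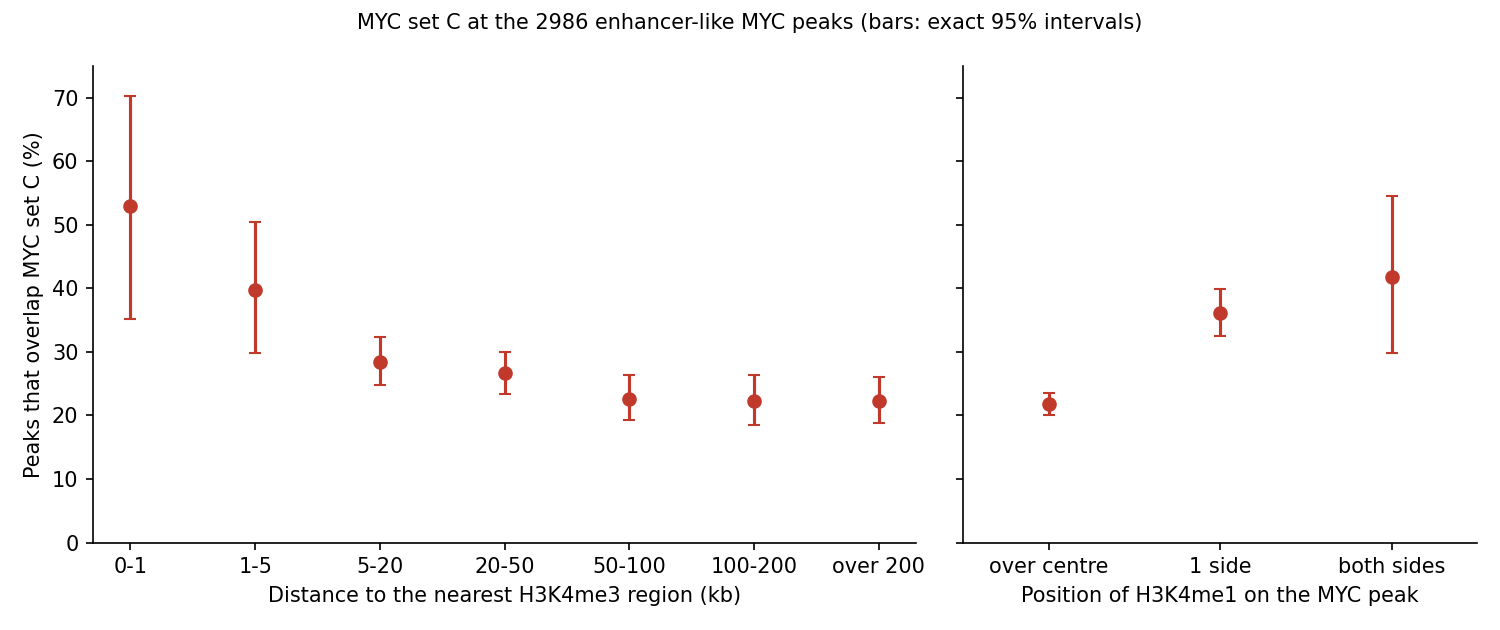
Share of the 2986 enhancer-like MYC peaks that overlap MYC of set C (y axis, %) by distance to the nearest H3K4me3 region in kb (left) and by the position of H3K4me1 on the peak (right), with exact 95% intervals as bars. The share is 52.9% in the band nearest to H3K4me3 and 22.3% in the farthest, and 21.8% where H3K4me1 covers the centre.

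The MYCN list, the second measure outside the rule, holds 895 regions, so it can meet only a small part of the 18018 MYC set D peaks. It overlapped 70 of the 2986 enhancer-like peaks, or 2.34% (1.83 to 2.95%), compared with 4.72% of all MYC set D peaks. No enhancer-like peak held more than 1 MYCN peak. The MYCN share was 8.44% (7.82 to 9.09%, 631 of 7479) at promoter-like peaks, so that the enhancer-like share was lower by 6.09 points (adjusted p = 1.76e-34, Fisher's exact test), and 5.19% at all other MYC set D peaks (adjusted p = 8.92e-13, Fisher's exact test). At peaks with H3K27ac alone it was 2.07% (1.53 to 2.75%, 47 of 2267), and that difference did not pass the test (adjusted p = 0.571, Fisher's exact test). The share was lower still at MYC peaks with H3K4me1 alone, 1.28% (10 of 783), and at those with no mark, 0.632% (12 of 1899), and these differences were not tested.

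The gap in MYCN also went with peak width, and within width groups it no longer passed the test. In all 3 classes MYCN was rarest at narrow MYC peaks and more frequent at wide ones. Among enhancer-like peaks it was found at 0 of 398 in the narrowest group, with an exact interval that reaches 0.923%, and at 11 of 74 (14.9%, 7.66 to 25.0%) in the widest, 844 bp and over. Promoter-like peaks ran from 0 of 228 to 275 of 1490 (18.5%) over the same groups. In the group from 572 to 675 bp the enhancer-like share was 10.7% of 178 and the promoter-like share 8.94% of 1107. Within the width groups the odds ratio against promoter-like peaks was 0.800 (95% interval 0.601 to 1.05) (exact conditional test, two-sided, adjusted p = 0.206), where it was 0.261 without them. Against all other MYC peaks it was 0.931 (0.708 to 1.21), and against H3K27ac alone 1.24 (0.833 to 1.86), and neither passed (exact conditional tests, two-sided, adjusted p = 0.651 and 0.407). Peak width depends on signal and on the caller, and what width stands for was not tested.

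The 70 enhancer-like peaks with MYCN were wider than the rest, with a median of 595 bp (quartiles 451 and 697) against 337 bp. The centre of the MYCN peak lay inside the MYC peak at 68 of them and was a median of 59.5 bp from the MYC centre. This position was not particular to them. When the MYCN centre had to lie inside, the promoter-like share was 8.38%, where it was 8.44% by any overlap. The share at peaks with H3K27ac alone stayed at 2.07%. MYC of set C was present at 32 of the 70 (45.7%, 33.7 to 58.1%) and at 25.0% of the 2916 without MYCN, a difference of 20.7 points (adjusted p = 0.000275, Fisher's exact test). This difference also went with width: within the width groups the odds ratio fell to 1.25 (0.727 to 2.15) from 2.53 and did not pass (exact conditional test, two-sided, adjusted p = 0.502). In all, 32 peaks (1.07%) were in both of the other factor lists and 2187 (73.2%) in neither. These counts were not made for other classes or for all MYC set D peaks, so they are a description only. Of all MYC set D peaks, 45.1% overlapped set C and 4.72% overlapped MYCN.

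Among the enhancer-like peaks with MYCN, the widest that were also in set C were not beside any of the empty stretches described below. The peak chrX:3799575-3800767 was 1193 bp wide, lay 38.0 kb from H3K4me3 and held a MYCN peak of 415 bp at chrX:3800139-3800553. A second one on the same chromosome, chrX:3838375-3839126, was 752 bp wide and held a MYCN peak of 167 bp. With the first, it was among 10 MYCN-bearing peaks that had another within 100 kb. The others of this kind among the 15 widest were chr16:18495567-18496502 (936 bp), chr12:132818383-132819272 (890 bp), chr14:103006450-103007310 (861 bp), chr2:740047-740849 (803 bp) and chr10:126043051-126043821 (771 bp). Each lay between 14.6 and 304 kb from H3K4me3. The widest MYCN peak at any of the 15, 537 bp, was that in chr2:740047-740849. Without set C but with MYCN, and nearer to H3K4me3, were chr17:36571088-36572232 (1145 bp wide, 12402 bp away, MYCN peak of 425 bp) and chr9:131830931-131831942 (1012 bp wide, 10983 bp away, MYCN peak of 250 bp). Farther out, chr3:53739549-53740311 (763 bp) and chr10:42599498-42600454 (957 bp) were also without set C. The latter fell outside the 100 kb limit used for empty stretches below. The cluster chr10:42384468-42409391, at lower positions on that chromosome, fell inside it. The remaining 4 of the 15 widest, also without set C, lay beside long stretches empty of listed regions, described next: chr2:92324090-92325885 (1796 bp), chr1:121484103-121485429 (1327 bp), chr11:51580060-51581001 (942 bp) and chr19:27731908-27732805 (898 bp).

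The very widest enhancer-like peaks were of another kind. The 10 widest measured 1510 to 3268 bp, and the first was the widest of all MYC set D peaks, among which promoter-like ones reached 2294 bp. It was chr6:58776260-58779527 (3268 bp), followed by chr18:18518118-18520324 (2207 bp), chr21:9825505-9827548 (2044 bp), chr17:22259779-22261639 (1861 bp) and chr2:92324090-92325885 (1796 bp, with MYCN). Next came chr5:10074-11752 (1679 bp), chr2:92296027-92297591 (1565 bp), chr18:107875-109436 (1562 bp), chr2:92290074-92291606 (1533 bp) and chr8:43793344-43794853 (1510 bp). None of the 10 overlapped set C, and 7 lay within 100 kb of a stretch of 2 Mb or more that held no region of any of the 6 lists. There were 76 such empty stretches. They were counted only between listed regions of a chromosome, so the ends of chromosomes could not count. The peaks chr5:10074-11752 and chr18:107875-109436 lay near the starts of their chromosomes. In hg19 each centromere is written as a long gap of unknown sequence, and the sequence next to these gaps is rich in satellite repeats, at which reads are known to pile up in many assays. Whether the 7 lie at centromeres, and what part repeats play in them, was not tested. None of the 10 widest promoter-like peaks lay beside such a stretch.

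Over the whole set, 41 of the 2986 enhancer-like peaks (1.37%, 0.987 to 1.86%) lay beside such a stretch, against 22 of 7479 promoter-like peaks (0.294%), 58 of 2267 with H3K27ac alone (2.56%) and 136 of 1899 with no mark (7.16%). These 41 had a median width of 537 bp. MYCN was at 6 of the 41 (14.6%, 5.57 to 29.2%) and set C at 3 (7.32%, 1.54 to 19.9%), where the 2945 others had MYCN at 2.17% and set C at 25.7%. In the widest of the 10 width groups, 0 of the 15 peaks beside an empty stretch overlapped set C, compared with 36 of the 59 others (61.0%, 47.4 to 73.5%). With those 15 peaks the enhancer-like share in that group was 48.6%, below the 60.6% of the group below. The latter group was not recounted without peaks beside empty stretches, and their part in the drop was not tested. Leaving out all MYC peaks beside empty stretches, a choice made after the data were examined, changed neither the side of the threshold nor the direction of any of the 7 Fisher tests.

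**Figure D5:**
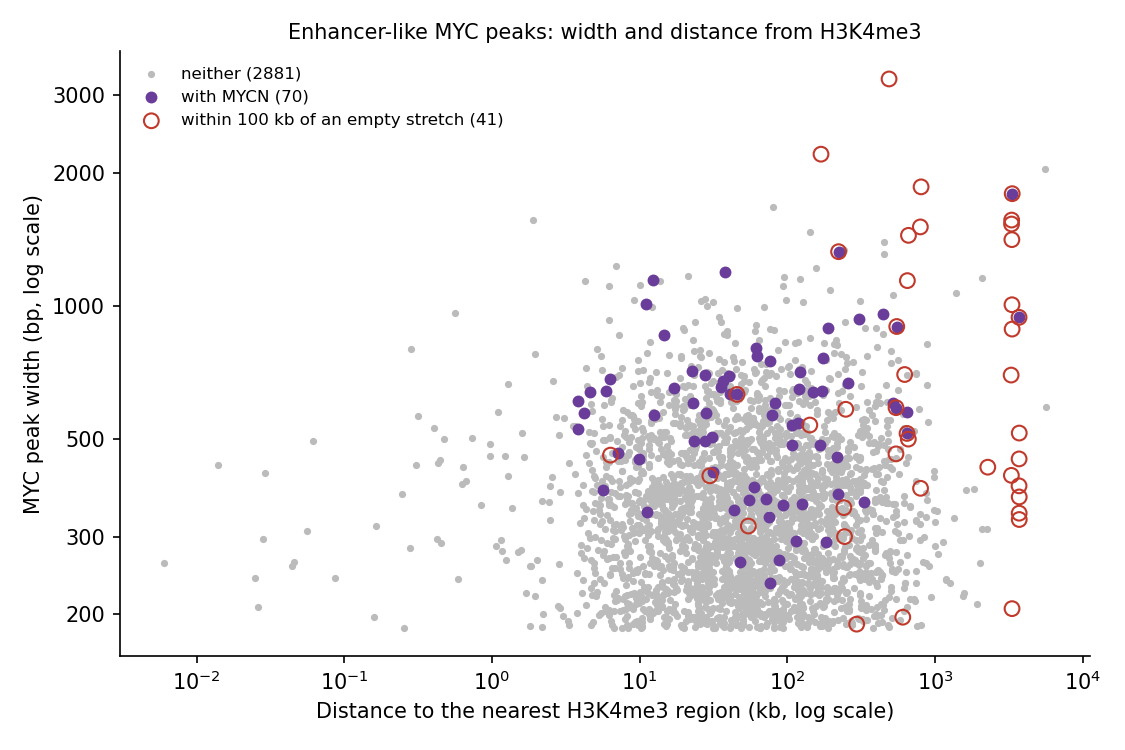
Width (y axis, bp, log scale) of each of the 2986 enhancer-like MYC peaks against its distance to the nearest H3K4me3 region (x axis, kb, log scale), with the 70 peaks that hold MYCN in purple and the 41 within 100 kb of an empty stretch circled in red. Of the 10 widest peaks 7 are circled, and the purple peaks have a median width of 595 bp against 337 bp for the rest. None of the 34 peaks under 1 kb from H3K4me3 is purple, with an exact interval that reaches 10.3%, and 4 of 93 (4.30%) at 1 to 5 kb are.

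Enhancer-like MYC peaks were also counted in acetylated clusters, and no other class was counted in this way. When the 39528 H3K27ac regions were joined within 10 kb of each other, 28279 clusters formed. Most clusters thus hold few regions and leave little room for more than 1 peak. Of the clusters, 2783 held an enhancer-like peak, and 2610 of those held exactly 1, 155 held 2 and 18 held 3 or more. The number of clusters with at least 2 followed the joining distance, with 58 at 5 kb, 173 at 10 kb and 341 at 20 kb. The cluster with the most, 9 enhancer-like peaks among 21 MYC peaks, was chr2:92269139-92325913, beside an empty stretch. It held 12 H3K27ac regions, 12 H3K4me1 regions, 3 MYCN peaks and no H3K4me3. The second, chr11:51569978-51591334, with 7 such peaks, also lay beside an empty stretch, as did chr10:42384468-42409391 with 4. Away from those stretches the richest was chr10:71094424-71135407, a cluster of 41.0 kb in which all 4 MYC peaks were enhancer-like and no region of set C, MYCN or H3K4me3 was listed. Among the 14 clusters with 3 peaks, the longest was chr10:121251980-121303164 (51.2 kb), where 3 of 4 MYC peaks were enhancer-like and 3 regions of set C, 1 MYCN peak and 1 H3K4me3 region were listed.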

How the data were processed

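Peak lists of 6 CUT&RUN libraries were used. The deposited files have 4 columns and no score, and their positions, in bases, refer to hg19 per the submitters' processing notes. MYC of set D came from MACS2 on unpaired reads and MYC of set C from SEACR in stringent mode on paired reads, and H3K4me3 from MACS2, per the file headers. MYCN peaks had a q-value below 0.01, per the file headers. The H3K27ac and H3K4me1 lists have no header. The labels name the set D MYC library as its own control. For the aligner and tool versions: not given in the sources used here. Column 4 of the set C list was read as the stretch of highest signal, readable for 9482 of 9498 regions.

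Regions on chromosomes 1 to 22 and X were kept. Overlap means 1 bp or more. Shares carry exact Clopper-Pearson 95% intervals. Fisher's exact test, two-sided, compared shares of peaks, Benjamini-Hochberg adjusted over 7 tests, and within deciles of MYC peak width by an exact conditional test in R 4.3.3, adjusted over the same 7. Other steps ran in Python 3.11.15 (scipy 1.17.1, numpy 2.4.6, figures in matplotlib 3.10.9). Simulated lists with known overlaps, and bedtools, served to test the code.

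The rule, classes and tests were chosen with earlier results of these data known. Comparisons with H3K27ac alone, that of peaks with and without MYCN and the empty stretches were added after the values were seen. Named regions are the 10 widest, the 15 widest with MYCN (1 region is in both), and the 5 H3K27ac clusters with most peaks, ties broken by length. Planned sequence and gene comparisons were not run, for want of an hg19 genome here.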

Additional observations from a re-analysis of the deposited data

How the results depend on the processing

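Of 68 recomputed values, 58 kept their direction, their side of the threshold or, for counts, stayed within 1.5 times. With MYC peaks at or above the median width of 422 bp, 924 peaks met the rule in place of 2986, and the set C gap between peaks with and without MYCN shrank to 11.2 points and did not pass (Fisher's exact test, adjusted p = 0.137). The rule applied to the MYC list of set C found 1220. Within width groups the odds ratios that did not pass, although they did without the groups, were 0.931 and 0.800 for MYCN against other and against promoter-like MYC peaks, and 1.25 for set C at peaks with MYCN. The small MYCN difference from peaks with H3K27ac alone turned to -0.393 points with marks over the centre base and -0.429 points with marks over 50% of the peak, and passed in no setting. The cause of these changes was not tested, other than that fewer peaks enter the setting of wider peaks. Clusters with 2 or more peaks, 173, became 58 and 341 with the other joining distances. All 3 set C gaps against other classes passed in every setting in which they were computed, but their size varied. The gap to H3K27ac alone ran from -18.1 points with wider MYC peaks to -7.74 points when set C centres had to lie inside. In the latter setting the shares were 18.7% at enhancer-like peaks and 26.4% at peaks with H3K27ac alone. Depth is unknown, so a peak absent from a list cannot be read as absence of binding.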
